A study of Mus musculus with 912 samples.

Results

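The levels of 9 genes of the perineuronal net and the surrounding neural matrix (Acan, Ncan, Bcan, Vcan, Hapln1, Hapln4, Tnr, Pxdn and Ptprz1) were measured in single nuclei of the mouse hippocampus. They were chosen by name, and all 9 are present among the 42802 genes of the deposited count tables. The study sorted nuclei from female C57BL6 mice by antibody staining and made each nucleus into its own SmartSeq2 library of polyA RNA. It asked which genes mark neurons that were active in an environment new to the mouse (NE) and that become active again when the mouse meets that environment a second time.

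In the first experiment mice aged 7.75 to 9 weeks either stayed in the home cage (HC) or spent 15 min in the NE and were collected 1 h later. Their nuclei were sorted as positive for the neuronal protein NEUN and as FOS+ or FOS- by the FOS protein, a marker of recent activity, and carry a predicted cell type in the labels. These types are dentate gyrus granule cells (DG), CA1, CA3 and subiculum (Sub) pyramidal cells, VIP, Pvalb and Ivy interneurons, and a group named Th. In the later experiment, with mice in the same age range, all nuclei were sorted as DG, without NEUN, and as positive for ARC, a longer-lived activity marker. FOS- nuclei were taken 4 h or 5 h after 1 exposure to context A. Other mice met context A again after 4 h (A>A) or met a different context (A>C), were collected 1 h later, and gave FOS+ and FOS- nuclei. HC and 1 h nuclei were not sorted for ARC, and the date labels of the DG groups at HC and 1 h are not shared with the later groups, so the time, the ARC and NEUN gates and the date cannot be told apart. The tested DG mice of HC and the DG mouse of 1 h also carry different date labels. Between HC and 1 h in DG, exposure and date therefore cannot be told apart either.

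Perineuronal nets are lattices of matrix that wrap the cell body and proximal dendrites of certain neurons, best known around parvalbumin interneurons, and limit the remodelling of their synapses. Hyaluronan chains form the backbone. The lecticans aggrecan (Acan), neurocan (Ncan), brevican (Bcan) and versican (Vcan) are chondroitin sulfate proteoglycans that bind it. The link proteins Hapln1 and Hapln4 hold lectican and hyaluronan together, and tenascin-R (Tnr) cross-links lecticans. Ptprz1 is a receptor tyrosine phosphatase that carries chondroitin sulfate chains and also exists as a secreted form. Pxdn encodes peroxidasin, a matrix peroxidase that cross-links collagen IV of basement membranes.

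In GENCODE vM21 on GRCm38 the 9 genes lay on 7 chromosomes. Hapln4 and Ncan were neighbours on chromosome 8, on opposite strands with 2222 bases between them, and Hapln1 and Vcan were neighbours on chromosome 13, on opposite strands with 43659 bases between them. Acan spans chr7:79053483-79115099 on the plus strand and Ptprz1 chr6:22875502-23052916 on the plus strand. Acan and Ptprz1 were the members past the test in DG comparisons with HC, so the 250 bases before their RefSeq starts are shown, from the promoters of GRCm38.p6, at chr7:79052976-79053225 and chr6:22875252-22875501, both on the plus strand and 5′ to 3′. The RefSeq start of Ptprz1 is the GENCODE start, but that of Acan lies upstream of the GENCODE start given above. Capitals mark a match to the EGR motif GCGNGGGCG on the reverse strand.
Acan: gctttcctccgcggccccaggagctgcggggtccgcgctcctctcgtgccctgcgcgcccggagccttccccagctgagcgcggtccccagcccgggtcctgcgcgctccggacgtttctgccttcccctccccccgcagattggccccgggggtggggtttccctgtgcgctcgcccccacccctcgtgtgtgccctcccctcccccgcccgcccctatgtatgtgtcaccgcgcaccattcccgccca
Ptprz1: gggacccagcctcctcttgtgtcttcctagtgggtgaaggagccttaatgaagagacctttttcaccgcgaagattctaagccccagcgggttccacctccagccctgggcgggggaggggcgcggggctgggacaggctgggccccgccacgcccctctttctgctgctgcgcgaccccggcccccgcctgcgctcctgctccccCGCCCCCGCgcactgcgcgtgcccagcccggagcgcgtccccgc
Both stretches were rich in G and C, with 74.4% in Acan and 71.6% in Ptprz1 against a median of 52.4% over 32851 promoters. The promoter table held 8 of the 9 members, without Hapln4. Motifs bound by activity-regulated factors were searched on both strands of these 250 bases. The EGR match of Ptprz1 began 44 bases before the start and was the only match in the 8 members, while 4.7% of all promoters held this motif. The cAMP response element TGACGTCA (1.55% of promoters), its shorter form TGACG, which the longer one contains (17.8%), the AP-1 motif TGANTCA (6.75%) and the E-box CACGTG (6.02%) had no match in the 8 members, which says only that these letters are not in this window.

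Of 912 nuclei, 783 from 29 mice passed the read, gene and Arc thresholds, with total counts of 142275 to 5885216 (median 1251690). Examples of known markers are given for DG, VIP, Pvalb, Ivy and CA1 nuclei, and not for CA3, Sub and Th. Prox1, the granule cell transcription factor, exceeded a log2(TPM+1) of 1 in 91% of DG nuclei, Vip did so in 90.9% of VIP nuclei and Pvalb in 75% of Pvalb nuclei, but Nos1 and Npy, known from Ivy cells, did so in 75% and 41.7% of the 12 Ivy nuclei. Several markers were not confined to their type. Prox1 exceeded 1 in 69.7% of VIP nuclei, and Vip in 66.7% of Ivy and 100% of Th nuclei. Mpped1, listed for CA1, did so in 76.7% of CA1 and 87.5% of Pvalb nuclei. Other listed markers were weaker, with Dsp above 1 in 21.8% of DG, Calb2 in 47% of VIP and Tac1 in 37.5% of Pvalb nuclei. Of the 25 HC nuclei labelled DG, 18 came from mouse 6, 5 from mouse 7 and 1 each from mouse 3 and mouse 5. The nucleus of mouse 3 goes against its label for 5 of 6 granule cell markers, as it held 1 count of Prox1 and 0 counts of Dock10, C1ql2, Dsp and Trpc6, which were above 1 in 21, 21, 15, 11 and 12 of the 23 nuclei of mice 6 and 7. The sixth marker of the list, Stxbp6, was present in it with 12 counts, at a log2(TPM+1) of 2.99, and was above 1 in 17 of the 23. By its label this nucleus was sorted as negative for the protein PROX1 and positive for CTIP2, the gate the study used for CA1. The study's DG gate is positive for both proteins. Levels below are the mean log2(TPM+1) over the nuclei of a mouse with at least 2 nuclei, where TPM is scaled by transcript length and by the total of the nucleus. Tests used counts summed per mouse and edgeR's quasi-likelihood test, with p adjusted over all genes tested and called under 0.05.

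Across the predicted types of the first experiment, HC and 1 h nuclei together, the members did not share a pattern. Ncan and Tnr were found in most nuclei of every type, Acan was counted almost only in DG and there mostly in 1 h FOS+ nuclei, Hapln1 and Vcan were highest in Ivy nuclei, Ptprz1 was highest in VIP nuclei, and Hapln4 was the member counted in every Pvalb nucleus. None of the 8 members that passed the filter on low counts was past the edgeR test in the 7 comparisons of types, and Acan did not pass that filter. Where mice of different types are said below not to overlap, the share of all genes of which this holds was not counted. Mice with 1 nucleus of a type are left out of such statements.

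Ncan was the lectican with the highest mean in all types but Pvalb, where Bcan was higher, and Ivy, where Vcan was higher. Its mean was 5.60 ± 0.50 (SD, n = 3 mice) in DG and 5.29 ± 0.92 (SD, n = 5) in Sub, then 4.58 ± 0.86 (SD, n = 3) in CA3 and 4.11 ± 0.84 (SD, n = 6) in CA1. It was 3.74 ± 0.88 (SD, n = 2) in Ivy, 3.10 ± 1.62 (SD, n = 5) in VIP, 3.02 ± 1.25 (SD, n = 2) in Th and 2.31 ± 0.40 (SD, n = 3) in Pvalb nuclei. The 3 Pvalb mice (1.87 to 2.65) lay below every DG, Sub, CA3 and CA1 mouse, whereas DG and Sub, and CA3 and CA1, overlapped. Against CA1 the log2 fold change was 1.41 ± 0.79 (SE) in DG (adjusted p = 0.632) and -1.42 ± 0.87 in Pvalb (adjusted p = 0.379).

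Acan, the lectican that marks the nets themselves in much of the brain, was counted in 21 of 78 DG nuclei, in 1 of 73 CA1 nuclei and in no nucleus of the other types. Of the 21, 16 were 1 h FOS+ nuclei of 1 mouse, 2 were 1 h FOS- nuclei, 2 were of HC mouse 6, and 1 was the nucleus of HC mouse 3. Type and activity are thus pooled in the DG share. In 1 h FOS- DG nuclei alone the share was 7.41%, below the limits for Sub and Pvalb nuclei given next. The 66 VIP nuclei without a count allow a share of up to 4.55% and the 33 Sub nuclei up to 9.09%, but the 8 Pvalb nuclei allow up to 37.5%, so at this number of nuclei a share well above that of DG could not be told from 0 in the type best known for nets. Bcan had its highest mean in Pvalb nuclei, at 3.69 ± 1.62 (SD, n = 3 mice; 2.59, 2.92 and 5.55), above each of the 5 VIP mice (0 to 0.94). HC mouse 8, left out with 1 nucleus of each type, was at 8.35 in VIP and 6.95 in Pvalb. In CA1 it spread from 0 to 5.21 over 6 mice. Bcan is also a gene of oligodendrocyte lineage cells, which the sort for NEUN in this experiment was meant to remove, and the 6 oligodendrocyte markers summed to 16.5 to 11720 CPM (counts scaled to the total of the sum) in CA1, 66.1 to 425 CPM in VIP and 8.44 to 231 CPM in Pvalb mice, and their part was not tested. For Pvalb against VIP the log2 fold change of Bcan was 4.33 ± 2.21 (SE, adjusted p = 0.342).

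Vcan and Hapln1, which lie side by side on chromosome 13, were both highest in Ivy nuclei. Hapln1 was counted in 10 of 12 Ivy nuclei, with means of 5.15 and 5.55 in the 2 mice, against 0 to 0.67 in the 5 VIP mice and 0 to 0.07 in the 6 CA1 mice. Vcan was counted in 7 of 12 Ivy nuclei, with means of 3.12 and 6.20, against 0 to 0.55 in VIP. Of the 7 nuclei, 6 were among the 7 of 1 h FOS-, none among the 2 of 1 h FOS+, and 1 with 1 count among the 3 of HC. Hapln1 was counted in 6 of 7, 1 of 2 and 3 of 3 of these. The groups did not overlap, yet the log2 fold changes of 6.34 ± 2.53 for Hapln1 (adjusted p = 0.535) and 5.24 ± 3.08 for Vcan (adjusted p = 0.585) in Ivy against VIP were not past the edgeR test. With limma on the mean log2(TPM+1) both were called, with differences of 5.08 (adjusted p = 3.1e-08) and 4.45 (adjusted p = 0.000207).

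Hapln4, the link protein known from nets of fast-spiking neurons, was counted in 8 of 8 Pvalb nuclei, 18 of 33 Sub, 10 of 26 CA3, 24 of 73 CA1 and 13 of 66 VIP nuclei. Its level did not follow the share: the 3 Pvalb mice (0.84, 2.10 and 3.53) overlapped the 3 CA3 mice (1.04, 1.72 and 3.89) and the 6 CA1 mice (0.42 to 2.05). For Pvalb against CA1 the log2 fold change was 0.69 ± 1.49 (SE, adjusted p = 0.863). Tnr was counted in 26 of 26 CA3, 33 of 33 Sub, 74 of 78 DG and 69 of 73 CA1 nuclei, and was highest in CA3 at 4.59 ± 1.81 (SD, n = 3). The CA1 mean was 4.11 ± 1.35 (SD, n = 6) and the DG mean 3.66 ± 0.92 (SD, n = 3). In VIP it was 1.82 ± 1.08 (SD, n = 5), and the ranges of VIP (0.69 to 3.41) and CA1 (2.78 to 6.26) overlapped.

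Ptprz1 was counted in 61 of 66 VIP nuclei and 60 of 78 DG nuclei. Its level in the 5 VIP mice, 4.80, 5.66, 6.03, 6.32 and 6.67, was above that of each CA1 mouse (0.34 to 2.90), Ivy mouse (0.17 and 0.84), Pvalb mouse (0.23 to 3.02) and DG mouse (2.83, 3.50 and 3.51). Th nuclei, at 3.65 and 5.99, overlapped VIP. For VIP against CA1 the log2 fold change of the sums was 2.71 ± 1.13 (SE, adjusted p = 0.275), and limma on the mean log2(TPM+1) gave a difference of 4.35 (adjusted p = 6.1e-05). Ptprz1 is also a gene of astrocytes and of oligodendrocyte precursors. The nuclei of the first experiment were sorted as positive for NEUN, a sort meant to remove glia, and were checked for both. The summed level of 8 astrocyte markers was 3.96 to 166 CPM in VIP and 17.2 to 438 CPM in CA1 mice, and that of 6 precursor markers 0 to 22.6 and 0 to 62.6 CPM, with Cspg4 and Olig2 at 0 in both types. Their part in the level of Ptprz1 was not tested. Pxdn was highest in CA3 (3.37, 4.11 and 4.24) and CA1 (1.65 to 5.08) and lower in VIP (0.20 to 2.72), with overlap between CA1 and VIP. Its log2 fold change in VIP against CA1 was -1.43 ± 1.28 (SE, adjusted p = 0.771).

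**Figure D1:**
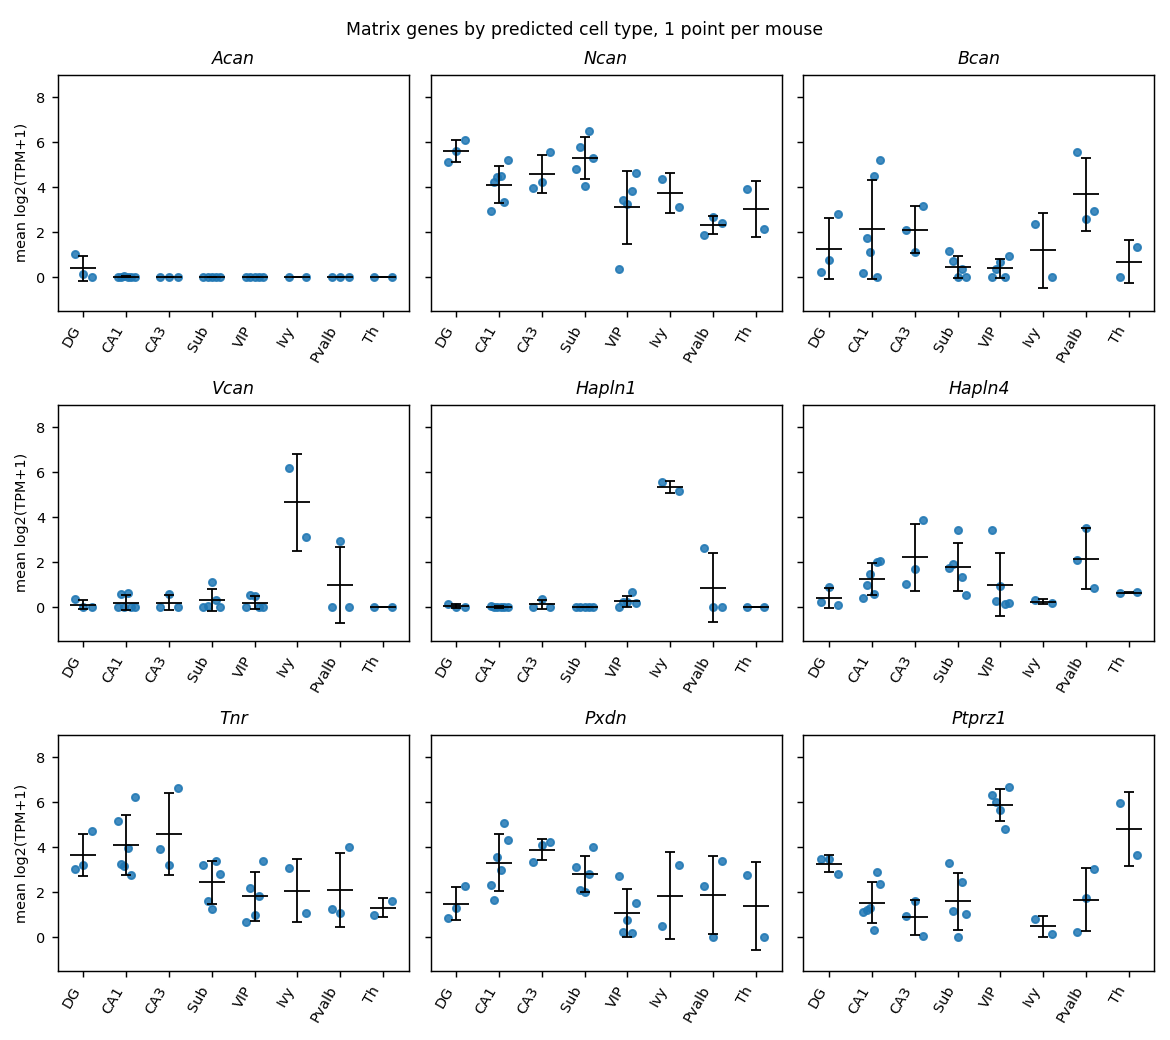
Mean log2(TPM+1) of each of the 9 genes (vertical axis) in the predicted cell types of the first experiment (horizontal axis), with 1 point per mouse with at least 2 nuclei and the mean and SD in black. Hapln1 and Vcan stand highest in the 2 Ivy mice, Ptprz1 in the 5 VIP mice (4.80 to 6.67), and Acan is at or near 0 outside DG. Within DG, Acan is at 0.12 and 0 in HC mice 6 and 7 and at 1.02 in the 1 h mouse.

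The background for these counts is the share of 19932 genes tested that were called. It was 0.547% for VIP against CA1, 0.968% for Pvalb against CA1, 0.176% for DG against CA1, 0% for CA3 against CA1, 0.01% for Sub against CA1, 0.291% for Pvalb against VIP and 0.0201% for Ivy against VIP. At shares this low, 0 of 8 members is what the background gives. At an unadjusted p under 0.05 there were 2 members in VIP against CA1, 3 in Ivy against VIP, 1 in each of Pvalb against CA1, DG against CA1, CA3 against CA1 and Pvalb against VIP, and 0 in Sub against CA1, where 5.88% (CA3) to 17.8% (Pvalb) of all genes were. DESeq2 called 2 members in Ivy against VIP and 0 in the other 6, and limma on the mean log2(TPM+1) called 1 in VIP against CA1, 1 in Pvalb against VIP, 3 in Ivy against VIP and 0 in the other 4. The shares above are those of edgeR and are no background for these calls. In the DG comparisons whose totals are given at the end, both tools called many more genes than edgeR. Their calls of members are therefore not read as a result about the members. With the mouse as a block, which could not be fitted for DG against CA1, 0 members were called, and of all genes 12 in VIP against CA1, 15 in Pvalb against CA1 and 10 in Pvalb against VIP, where 109, 193 and 58 were called without it.

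Outside DG no member passed the edgeR test between FOS+ and FOS- nuclei taken 1 h after NE exposure. It called 0 of 6 members tested in CA1, 0 of 8 in VIP, 0 of 5 in Sub and 0 of 8 in CA3, and 0% of all genes in each of these 4 comparisons. The 1 h FOS- nuclei against HC likewise gave 0 of 6 in CA1 and 0 of 8 in VIP, with 0% of all genes called in both. Unadjusted p values under 0.05 were found for 2 members in VIP FOS+ against FOS- (Hapln1 and Vcan) and for 1 in VIP FOS- against HC (Hapln1), where 5.67% and 4.97% of all genes had them, and for 0 members in the other 4, where 4% to 6.71% of all genes had them. DESeq2 called 1 member in VIP and 1 in CA3 FOS+ against FOS- nuclei and 0 in the other 4, and limma called 0 in all 6. Pxdn and Tnr were lower in FOS+ than in FOS- nuclei in 3 of 3 CA1 mice, with differences in mean log2(TPM+1) of -1.90 to -0.71 and -0.68 to -0.33, and the mean of Hapln4 was higher in 3 of 3, with differences of 0.11 to 0.67. The share of nuclei with Hapln4 did not follow its mean. It was 25% in FOS+ against 61.5% in FOS- nuclei in mouse 2, 25% against 40% in mouse 4 and 40% against 0% in mouse 10. How many of all genes had the same sign in all 3 mice was not counted, so this is a description. The log2 fold changes of the sums were -0.73 ± 0.81, -0.10 ± 0.67 and 1.32 ± 1.73 (SE, adjusted p = 1 for each). Ptprz1 in VIP, where it was highest, had a log2 fold change of 0.11 ± 0.47 (SE, adjusted p = 1) for FOS+ against FOS-.

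In DG the members separated into those whose levels stood higher after exposure and those that stayed low or showed no call. Acan was near 0 in HC and in 1 h FOS- nuclei and stood higher in 1 h FOS+ nuclei and in all later groups. Ncan, Ptprz1 and Pxdn were close to HC or lower in 1 h FOS+ nuclei and stood above both HC mice at 4 h and 5 h. The share of all genes whose mice do not overlap was not counted, here or in the DG comparisons below. A lack of overlap with only 2 HC mice is therefore given as a description. Tnr, Bcan, Vcan, Hapln1 and Hapln4 had no edgeR call against HC, while other tools called Tnr or Bcan lower in some of these comparisons, as given below. The study placed Acan, Ncan, Ptprz1 and Pxdn in its late gene group on these same nuclei, so their direction at the late times is not independent evidence. Its late group holds genes raised at 4 h and 5 h and not at 1 h, by another test on single nuclei. The edgeR call of Acan in 1 h FOS+ nuclei, given below, differs from that placement.

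Acan was 0.12 in HC mouse 6 (8 counts in 2 of 18 nuclei) and 0 in HC mouse 7 (0 of 5 nuclei). In the 1 mouse that gave both 1 h groups it was 0.04 in FOS- nuclei, counted in 2 of 27 (7.41%, exact 95% binomial interval 0.91% to 24.3%), and 2.05 in FOS+ nuclei, counted in 16 of 26 (61.5%, 40.6% to 79.8%). These intervals cover counting error only. At 4 h it was 2.88 and 3.01 in the 2 mice (50 of 68 nuclei), and at 5 h 1.18, 1.39, 2.16 and 3.17 in the 4 mice (32 of 59 nuclei). Thinned to 100000 counts per nucleus, the shares were 8% in HC, with the nucleus of mouse 3 described above among the 25, 3.70% and 42.3% in 1 h FOS- and FOS+, 50% at 4 h and 44.1% at 5 h. HC and 1 h FOS- stayed the lowest and 4 h the highest, while 1 h FOS+ was above 5 h (54.2%) before thinning and below it after.

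In the test on sums Acan rose against HC in 1 h FOS+ nuclei (log2 fold change 9.00 ± 1.44 SE, adjusted p = 0.00566), at 4 h (9.77 ± 1.44, adjusted p = 0.00209) and at 5 h (8.71 ± 1.36, adjusted p = 0.00565). It was the single member of 9 called in each, where 0.27%, 0.246% and 0.262% of all 24405 genes were called. The size of these folds rests on 8 counts in HC. FOS+ against FOS- nuclei of the 1 h mouse gave 10.30 ± 2.06 (adjusted p = 0.0924), with 0 members and 0.0451% of all genes called, and 2 members at an unadjusted p under 0.05. There DESeq2 called 2 members and limma 0, and with the mouse as a block 0 genes were called in place of 11. As 1 mouse gave both 1 h groups, their spread was taken from the other DG groups. This mouse carries another date label than the tested HC mice, so date and exposure cannot be told apart.

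The calls of Acan rest on the HC mice. Without mouse 7 the adjusted p was 0.12 in 1 h FOS+ nuclei, 0.0906 at 4 h and 0.112 at 5 h, with log2 fold changes of 8.39, 9.16 and 8.11. The single nucleus of HC mouse 3, in which 5 of 6 granule cell markers were at 0 or 1 count, held 111 counts of Acan (log2(TPM+1) of 3.93), together with Hapln4 at 6.59 and Bcan at 4.67. It was sorted outside the DG gate, so it may not be a granule cell, and the next setting includes it. With mice 3 and 5 kept as sums of 1 nucleus each, a setting chosen after seeing the data, Acan's log2 fold changes were 3.11, 3.87 and 2.83 and its adjusted p 0.847, 0.439 and 0.342. With limma on the mean log2(TPM+1) the difference in 1 h FOS+ nuclei was 1.99 (adjusted p = 0.142).

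Ptprz1 was 3.51 and 2.83 in HC, 3.50 in 1 h FOS- and 3.51 in 1 h FOS+ nuclei. It was 7.16 and 6.26 at 4 h and 6.82, 4.75, 7.81 and 7.34 at 5 h, where all 127 nuclei held a count. No 4 h or 5 h mouse overlapped HC. The log2 fold change was 0.92 ± 0.76 (SE) in 1 h FOS+ nuclei (adjusted p = 0.848), 2.75 ± 0.68 at 4 h (adjusted p = 0.163) and 2.77 ± 0.64 at 5 h (adjusted p = 0.0886).

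Pxdn was 1.32 and 2.30 in HC, 1.32 in 1 h FOS- and 0.41 in 1 h FOS+ nuclei. It was 5.91 and 3.47 at 4 h and 5.19, 2.95, 5.46 and 5.82 at 5 h, again with no overlap. It was counted in 9 of 25 HC nuclei and 5 of 26 1 h FOS+ nuclei, but in 67 of 68 nuclei at 4 h and 57 of 59 at 5 h. The log2 fold change was -1.05 ± 1.07 (SE) in 1 h FOS+ nuclei (adjusted p = 0.898), 3.71 ± 0.93 at 4 h (adjusted p = 0.169) and 4.27 ± 0.92 at 5 h (adjusted p = 0.0547). Without mouse 23 of the 5 h group, which gave 6 nuclei, Pxdn (4.50, adjusted p = 0.0406) and Ptprz1 (3.01, adjusted p = 0.0464) were past the test at 5 h. Neither was past it with all mice or without HC mouse 7.

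Ncan was 5.59 and 6.10 in HC, 4.25 in 1 h FOS- and 5.98 in 1 h FOS+ nuclei, then 8.09 and 8.28 at 4 h and 7.76, 8.59, 7.09 and 6.79 at 5 h. The late mice again lay above both HC mice. The log2 fold change was 0.33 ± 0.65 (SE) in 1 h FOS+ nuclei (adjusted p = 1), 2.07 ± 0.56 at 4 h (adjusted p = 0.249) and 1.74 ± 0.51 at 5 h (adjusted p = 0.225). With DESeq2 Ncan, Ptprz1 and Pxdn were called at both times, beside Acan.

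Tnr, the cross-linker, was 3.21 and 4.71 in HC, 2.60 in 1 h FOS+ nuclei, 3.84 and 2.00 at 4 h and 0.93, 0.75, 2.04 and 2.69 at 5 h. All 4 mice at 5 h lay below both HC mice, but the log2 fold change of the sums was -0.84 ± 0.73 (SE, adjusted p = 0.686), while limma called its difference in mean log2(TPM+1) of -2.36 (adjusted p = 0.0151). With the single nuclei of HC mice 3 and 5 kept the log2 fold change turned to 0.086. Bcan was 0.77 and 2.78 in HC and 0 in 1 h FOS+ nuclei, with 0 of 26 nuclei counted (up to 11.5%), 0.29 and 0.34 at 4 h and 0 to 1.09 at 5 h. Its log2 fold change at 5 h was -3.17 ± 2.28 (SE, adjusted p = 0.614), while limma called its difference of -1.38 in mean log2(TPM+1) at 5 h (adjusted p = 0.0284), and DESeq2 called it lower in 1 h FOS+ nuclei (adjusted p = 7.19e-11), where all nuclei were at 0. Hapln4 was counted in 9 of 25 HC nuclei, 4 of 26 1 h FOS+, 7 of 68 4 h and 2 of 59 5 h nuclei, or 12%, 3.85%, 2.94% and 1.70% after thinning. The HC share includes the nucleus of mouse 3 sorted outside the DG gate, which held 359 counts. Hapln1 was counted in 0 of 25 HC and 3 of 68 4 h nuclei, and Vcan in 0 of 25 and 1 of 68, so no fold is given for either.

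Of the 9 members, 4 at 4 h and 4 at 5 h had an unadjusted p under 0.05 against HC, where 5.59% and 10.3% of all genes did, and the median log2 fold change of the members was 2.75 and 1.74 against 0.23 and 0 for all genes. The 1 h FOS- nuclei against HC gave 0 members called (0.0041% of all genes) and 1 with an unadjusted p under 0.05, beside 2.8% of all genes, and neither DESeq2 nor limma called a member. Between 5 h and 4 h 0 members and 0% of all genes were called by edgeR, and 1 member and 5.5% of all genes had an unadjusted p under 0.05. DESeq2 and limma called 0 members. There the log2 fold change was -1.06 ± 0.81 for Acan, -0.33 ± 0.46 for Ncan, 0.03 ± 0.56 for Ptprz1 and 0.56 ± 0.74 for Pxdn (SE, adjusted p from 0.875 to 1). Median total counts of the nuclei were 979780 in HC, 1462217 in 1 h FOS+, 2469299 at 4 h and 426841 at 5 h. The part of depth in these levels was not tested.

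**Figure D2:**
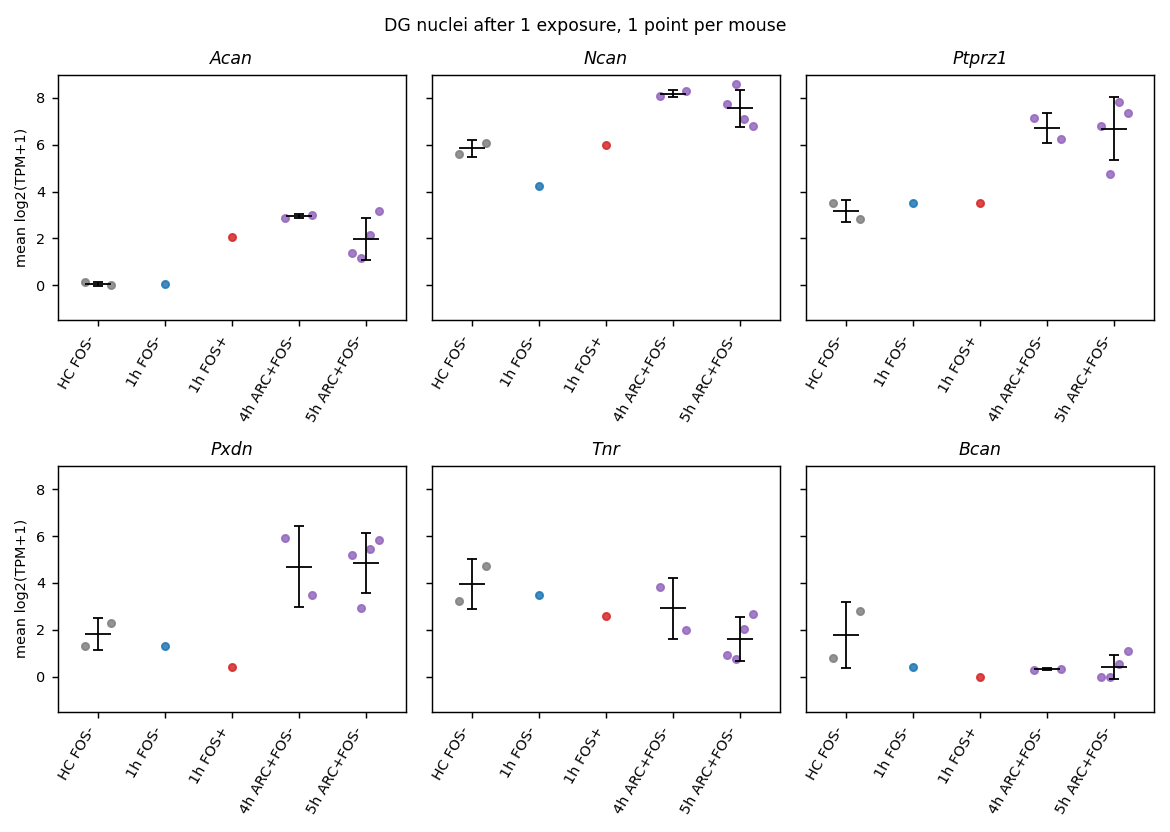
Mean log2(TPM+1) of 6 genes (vertical axis) in DG nuclei of the home cage (HC), 1 h after exposure and 4 h or 5 h after exposure (horizontal axis), with 1 point per mouse and the mean and SD in black where there are at least 2 mice. Acan is at 2.05 in the 1 h FOS+ nuclei and near 0 in HC and 1 h FOS- nuclei, and Ncan, Ptprz1 and Pxdn lie above both HC mice in every mouse at 4 h and 5 h.

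After a second exposure the nuclei sorted as ARC+ and FOS- had levels above HC in 4 of the 9 members. In A>A FOS- nuclei Acan ranged over 6 mice from 0.82 to 2.20 (median 1.77), Ptprz1 from 6.20 to 8.00 (7.11), Pxdn from 3.43 to 4.72 (4.38) and Ncan from 6.67 to 7.85 (7.22). All 6 mice lay above both HC mice for each of these 4 genes. Against HC 2 of 9 members were called, Acan (log2 fold change 9.16 ± 1.38 SE, adjusted p = 0.00201) and Ptprz1 (3.10 ± 0.64, adjusted p = 0.0299), where 0.463% of all genes were. Pxdn had 3.57 ± 0.86 (adjusted p = 0.0822) and Ncan 1.38 ± 0.48 (adjusted p = 0.281).

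These 2 calls also rest on single mice. Without HC mouse 7 the adjusted p was 0.0544 for Acan and 0.337 for Ptprz1, and with the single nuclei of HC mice 3 and 5 kept it was 0.204 and 0.0789. Ptprz1 was also not called without HC mouse 6 (0.109) or A>A mouse 20 (0.0555). Tnr had a log2 fold change of -0.57 ± 0.68 (SE, adjusted p = 0.802) and Bcan of -4.24 ± 2.03 (adjusted p = 0.521), while limma called Bcan's difference of -1.497 (adjusted p = 0.0125). The summed astrocyte markers were 27.6 and 128 CPM in the HC mice, 196 and 228 CPM at 4 h, 119 to 464 CPM at 5 h and 111 to 640 CPM in A>A FOS- nuclei, with 2 or fewer of the 8 markers above a mean log2(TPM+1) of 1 and Aqp4, Aldh1l1 and Fgfr3 at 0 in HC. The summed precursor markers were 0.50 and 0.68 CPM in HC and 0.05 to 18.4 CPM in A>A FOS- nuclei. In A>A FOS+ nuclei the astrocyte sum was 59.1 to 566 CPM and the precursor sum 0.13 to 164 CPM. HC nuclei were sorted for the neuronal protein NEUN and the later nuclei were not. The part of these markers in the levels of Ptprz1, Ncan and Bcan was not tested.

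In the nuclei sorted as ARC+ and FOS+ the mean level of Acan was higher than in FOS- nuclei and the means of Ptprz1, Pxdn and Ncan were lower. The study describes ARC+ FOS+ nuclei as a mix of newly activated and reactivated nuclei, and in A>C most had its early signature. Both kinds are pooled here and in A>C below, so these means are not levels of reactivated nuclei. In A>A FOS+ nuclei Acan ranged from 2.32 to 4.08 (median 3.12), above all 6 mice of the FOS- group. Ptprz1 ranged from 2.59 to 6.62 (5.56), Pxdn from 1.14 to 4.37 (3.46) and Ncan from 5.27 to 7.44 (6.93), each overlapping FOS-. Acan was counted in 93 of 130 FOS+ and 75 of 129 FOS- nuclei, which became 53.8% and 34.1% at 100000 counts per nucleus.

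The test on sums called none of the 9 members between A>A FOS+ and FOS- nuclei, against 0.041% of all genes. The log2 fold change was 0.89 ± 0.56 (SE) for Acan (adjusted p = 0.515), -1.31 ± 0.38 for Ptprz1 (adjusted p = 0.243), -0.73 ± 0.48 for Pxdn (adjusted p = 0.546) and -0.37 ± 0.31 for Ncan (adjusted p = 0.693). Ptprz1 was the 1 member with an unadjusted p under 0.05, beside 15.4% of all genes. Other tools each called 1 of them: limma on the mean log2(TPM+1) called Acan (difference 1.40, adjusted p = 0.0299), and DESeq2 called Ptprz1 (-1.31, adjusted p = 0.0225). Summed Acan counts overlapped between the groups, at 104 to 393 CPM in FOS+ and 25.8 to 182 CPM in FOS- mice, unlike the mean log levels. With mouse as a block 0 members were called, and 0 genes in place of 10. In the date labels that hold both kinds of nuclei, the log2 fold change was 1.11 for Acan (adjusted p = 0.66) and -1.40 for Ptprz1 (adjusted p = 0.476).

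In 4 A>A mice both kinds of nuclei came from the same animal. FOS+ minus FOS- in mean log2(TPM+1) of Acan was 0.62, 0.60, 1.73 and 2.07 in mice 24, 25, 26 and 27, above 0 in 4 of 4. The study names Acan among its genes predicting reactivation, which it chose from A>A nuclei of this series. The direction of Acan in A>A FOS+ against FOS- nuclei is thus not independent evidence. For Ptprz1 it was -2.36, -5.01, -0.19 and -1.13 and for Pxdn -2.80, -2.02, -0.41 and -1.85, below 0 in 4 of 4. Ncan was lower in 3 of 4, at -1.21, -2.58, 0.55 and -0.62. Mice 24 and 25 share a date label, as do 26 and 27, and the differences of Acan were above 1 in the second pair alone. Mouse 26 had the smallest differences of Ptprz1 and Pxdn, and mouse 25 the largest of Ptprz1 and Ncan. Tnr was higher in FOS+ nuclei in 3 of 4 mice (-0.89 to 0.55) and Bcan in 2 of 4 (-0.42 to 0.65). How many of all genes had the same sign in 4 of 4 mice was not counted, so these signs are a description.

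**Figure D3:**
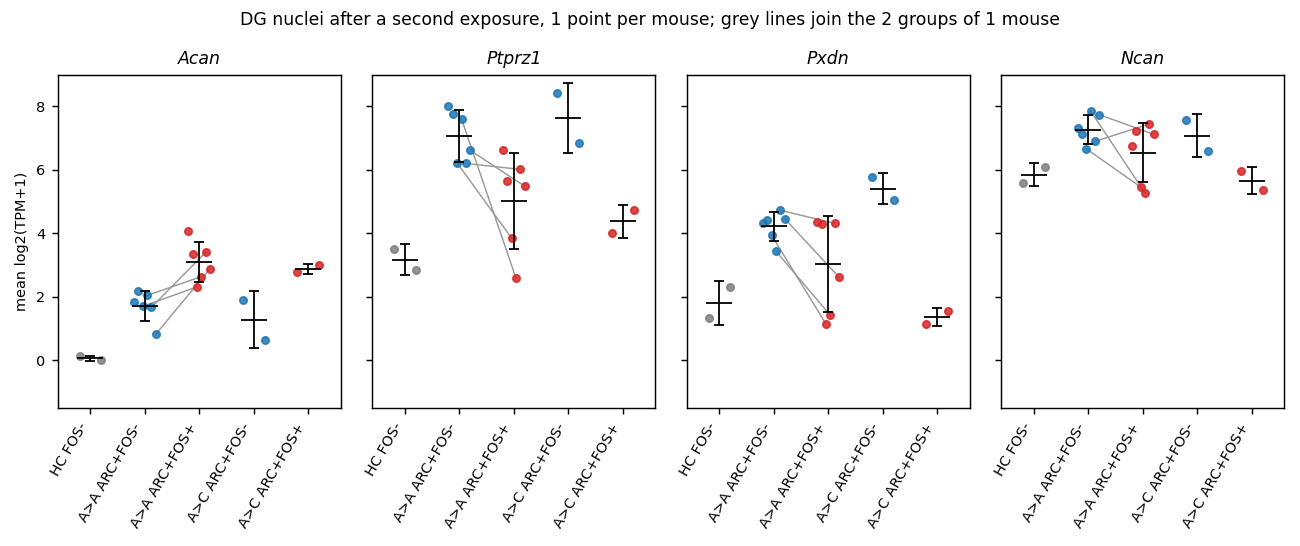
Mean log2(TPM+1) of 4 genes (vertical axis) in HC nuclei and in FOS- (blue) and FOS+ (red) DG nuclei after a second exposure to the same (A>A) or another context (A>C), with 1 point per mouse and the mean and SD in black; grey lines join both groups of 1 mouse. Acan is higher in FOS+ nuclei on all 4 lines, and Ptprz1 and Pxdn are lower on all 4.

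With another context in the second exposure, FOS+ and FOS- nuclei came from different mice, 2 for each, under different date labels, so date and FOS group cannot be told apart. Acan was 2.78 and 3.00 in FOS+ and 1.92 and 0.65 in FOS- nuclei. Ptprz1 was 4.02 and 4.74 against 8.40 and 6.86, Pxdn 1.15 and 1.57 against 5.76 and 5.06, and Ncan 5.96 and 5.36 against 7.56 and 6.59. None of these 4 genes overlapped between the groups. With 2 mice on each side, and the share of all genes without overlap not counted, this is no result about these genes. The test on sums called 0 of 9 members and 0% of all genes, with log2 fold changes of 1.42 ± 0.99 for Acan (SE, adjusted p = 0.909), -2.27 ± 0.67 for Ptprz1 (0.875), -1.99 ± 0.87 for Pxdn (0.899) and -0.98 ± 0.54 for Ncan (0.899). Unadjusted p values under 0.05 were found for 4 members (Ptprz1, Pxdn, Hapln1 and Bcan) and 4.46% of all genes. DESeq2 called 2 members and limma 0.

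The FOS difference itself was compared between contexts with an interaction term, which called 0 members and 0% of all genes. It was -0.53 ± 1.12 (SE) for Acan, 0.96 ± 0.74 for Ptprz1, 1.26 ± 0.97 for Pxdn and 0.61 ± 0.62 for Ncan (adjusted p = 1 for each). Between A>A and A>C, FOS+ nuclei gave 0 members and 0% of all genes called and FOS- nuclei likewise 0 and 0%. At an unadjusted p under 0.05 the interaction had 1 member, FOS+ nuclei 0 and FOS- nuclei 1, beside 4.38%, 4.94% and 4.88% of all genes, and DESeq2 and limma called 0 members in all 3. In FOS+ nuclei Pxdn was 1.15 and 1.57 in A>C and 1.14 to 4.37 in A>A, with a log2 fold change of 1.42 ± 0.75 (SE, adjusted p = 0.99), and Ptprz1 had 0.72 ± 0.55 (adjusted p = 0.991). In A>A FOS+ nuclei mice 24 and 25 had the lowest levels of Ptprz1, Pxdn and Ncan. The 6 A>A FOS+ mice had median total counts per nucleus of 767842.5 to 2285993 and the 6 FOS- mice of 1890935.5 to 2694302.5.

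**Figure D4:**
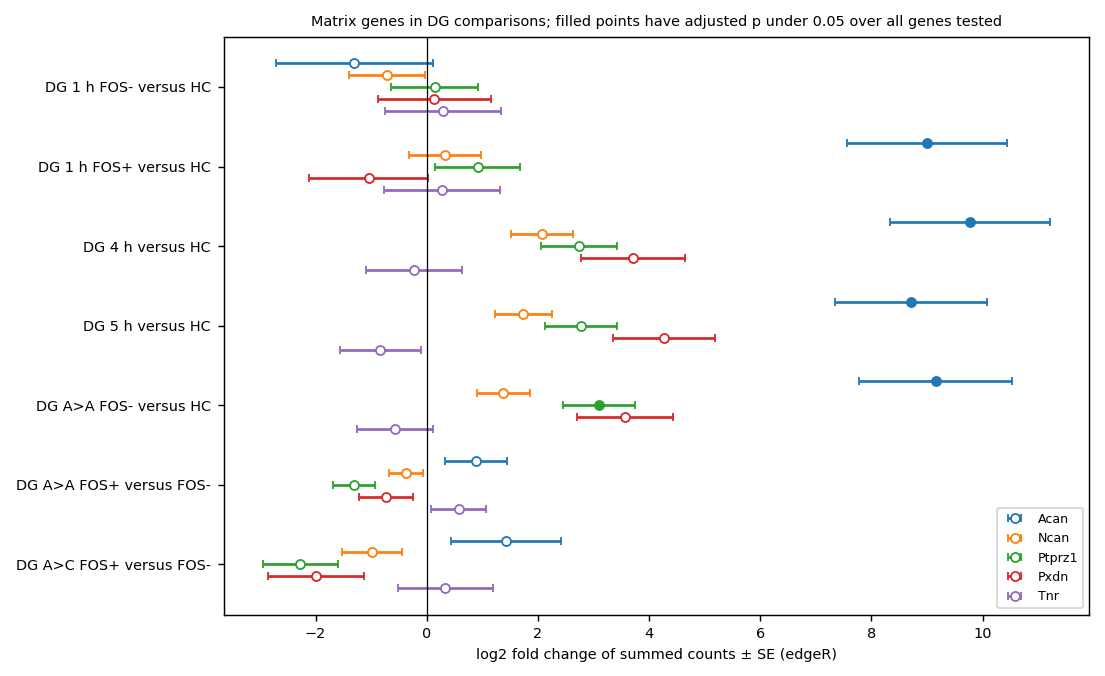
Log2 fold change of counts summed per mouse with its SE (horizontal axis) for 5 genes in 7 DG comparisons (vertical axis), from edgeR's quasi-likelihood test; filled points have an adjusted p under 0.05 over all 24405 genes. The 4 filled Acan points lie between 8.71 and 9.77, and the filled Ptprz1 point is at 3.10 in A>A FOS- against HC.

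Over the 26 mouse means of the DG groups, which share libraries and differ in depth, Acan and the other late members had different profiles. Ptprz1 and Pxdn went together (Pearson r = 0.88) and Ncan with both (r = 0.69 and 0.68), but Acan had r = 0.26 with Ptprz1, 0.18 with Pxdn and 0.23 with Ncan. Among 8134 genes with a mean of 1 or more the profiles most like Acan were those of Inhba (r = 0.86), Galnt9 (0.84) and Pdgfa (0.84). Those most like Ptprz1 were Sorcs3 (0.90), Dock3 (0.89) and Megf11 (0.87), most like Pxdn Rgs7 (0.93), Sorcs3 (0.89) and Megf11 (0.88), and most like Ncan Sorcs3 (0.79), Ssbp3 (0.78) and Tmod1 (0.77). Over the 29 mouse means of predicted types Ptprz1 was most like Adarb2 (0.82), Htr3a (0.75) and Calb2 (0.69), genes known from the same class of interneurons, among 10291 genes. Across the nuclei within each A>A mouse this contrast was not seen. The Spearman correlation in FOS+ nuclei had a median over 6 mice of 0.15 for Ptprz1 and Pxdn (-0.33 to 0.28), 0.43 for Ncan and Ptprz1 (0.01 to 0.51) and 0.23 for Acan and Ptprz1 (0.20 to 0.45). In FOS- nuclei these were 0.16, -0.003 and 0.08.

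Other genes of the matrix were taken from 5 lists with 113 genes: matrix relatives, enzymes of hyaluronan and chondroitin sulfate, proteases and their inhibitors, basement membrane, and receptors and ligands. Over the 25 comparisons 3 of them were called. Rtn4rl1, a Nogo receptor relative that binds chondroitin sulfate proteoglycans, rose against HC in 1 h FOS+ nuclei (log2 fold change 4.04 ± 0.71 SE, adjusted p = 0.012), at 4 h (3.50 ± 0.65, adjusted p = 0.0179), at 5 h (3.12 ± 0.60, adjusted p = 0.0276) and in A>A FOS- nuclei (3.88 ± 0.62, adjusted p = 0.00356). It was the 1 gene called of 23 receptors and ligands tested in each. Rtn4r, the Nogo receptor, was lower than in CA1 in VIP nuclei (-7.25 ± 1.33, adjusted p = 0.0092) and in Pvalb nuclei (-10.92 ± 2.25, adjusted p = 0.0216). Cemip, which takes part in hyaluronan breakdown, was higher in Pvalb than in VIP nuclei (5.55 ± 1.22, adjusted p = 0.0463). In A>A FOS- nuclei against HC the median log2 fold change was 2.06 over 14 basement membrane genes tested, 0.78 over 24 enzymes, 0.84 over 18 matrix relatives, 0.45 over 22 proteases and inhibitors and 0.88 over 23 receptors and ligands, against 0.42 for all genes, with 0 genes called in the first 4 lists.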

How the data were processed

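Read counts were estimated by the authors with RSEM on Bowtie alignments to mm10 (versions not given in the sources used here). The deposited tables hold expected counts, with 0 values that are not exactly whole, and log2(TPM+1) values of the same nuclei, per the labels and file headers. Nuclei with at least 100000 aligned reads and 4000 genes with a log2(TPM+1) above 1 were kept, and 35 FOS- nuclei of HC and 1 h with Arc above 2.5 were left out. Samples were grouped by their labels, and an animal was taken as the exposure and mouse number together. Counts, which needed no rounding, were summed per animal and group over at least 2 nuclei, filtered with filterByExpr, scaled by TMM and tested with edgeR 4.0.16 (glmQLFit, glmQLFTest; R 4.3.3) on the whole table, with Benjamini-Hochberg adjustment over all genes tested. SEs were derived from the fold change and F. DESeq2 1.42.0 and limma 3.58.1, on the mean log2(TPM+1), were alternatives, as were other filters, scalings, nuclei and left-out mice.

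Total counts of the 783 kept nuclei ran from 142275 to 5885216, and intervals and limits from counts of 0 (3 nuclei) cover counting error only. Sums of the same mouse come from 1 animal. Their deviations from the group means correlated with r of 0.174 to 0.292 in the DG groups (4 pairs) and -0.02 to 0.114 in the predicted types (37 pairs). The members, the related lists and the tests were chosen with earlier results of these data known. All members are named, together with the genes of the related lists past the test and, for each member, the 3 genes with the highest Pearson r. The code was tested on simulated data. Fold changes and p-values of the study were not used.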

Additional observations from a re-analysis of the deposited data

Results flagged for a closer look

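Among 49 sets of 4 to 10 mice tested for a single mouse far from the others, 7 held one, where chance gives about 1 in 20. That rate does not apply where all other mice are at 0, as any value above 0 is then flagged, so 7 of 49 is not read as an excess. In DG nuclei these were 3 values of Vcan, each against 0 in all other mice of its group: 0.171 in mouse 8 at 5 h (22 nuclei), 0.321 in mouse 16 of A>A FOS+ and 0.279 in mouse 26 of A>A FOS- nuclei, as mean log2(TPM+1). In CA1, Acan was 0.0493 in 1 h mouse 4 (9 nuclei) and 0 in the other mice, and Hapln1 was 0.067 in 1 h mouse 10 against 0 to 0.0224. Hapln4 in VIP nuclei was 3.44 in 1 h mouse 2, which gave 2 nuclei, against 0.147 to 0.932. Vcan in Sub was 1.14 in 1 h mouse 4 (6 nuclei) against 0 to 0.32.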

How the results depend on the processing

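Of 213 counts of called members under an alternative, left-out mice aside, 193 stayed within 1.5 times of the count reported. DESeq2 called 2 members in Ivy against VIP, 1 in VIP and 1 in CA3 FOS+ against FOS-, 2 in DG 1 h FOS+ against FOS-, 2 in 1 h FOS+ against HC, 4 at 4 h, 4 at 5 h, 1 in A>A and 2 in A>C FOS+ against FOS-, and limma 1 in VIP against CA1, 1 in Pvalb against VIP, 3 in Ivy against VIP, 0 in 1 h FOS+ against HC, 5 at 5 h and 1 in A>A FOS+ against FOS-. Of all genes, DESeq2 called 1776 and limma 489 in 1 h FOS+ against HC (edgeR 66), 1011 and 485 at 4 h (60), 1987 and 1334 at 5 h (64), 874 and 339 in A>A FOS+ against FOS- (10), and 1848 and 1277 in A>A FOS- against HC (113). For the other comparisons the totals of DESeq2 and limma are not given, so their counts of members there stand without a background. With all nuclei 3 members were called at 5 h. With single-nucleus mice kept, chosen after seeing the data, 0 were called in 1 h FOS+, 4 h, 5 h and A>A FOS- against HC, and Tnr at 5 h turned to 0.0864 (adjusted p = 1). Leaving out each mouse gave 0 to 1, 0 to 1, 0 to 3 and 0 to 3 members in these 4 comparisons, with 0 in each without HC mouse 7. The cause was not tested. With mouse as a replicate block 0 members were called wherever it could be fitted, which changed no call of a member. Of 81 detection shares, 66 of 162 alternatives (a level above 1, or thinning) moved, all lower. Few mice and nuclei limit HC and 1 h.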
